A study of Ovis aries with 18 samples.

Results

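The miRNAs of ram testis were compared between 6 and 12 months of age. The table of deposited counts listed 7146 mature miRNAs, and every miRNA with 10 or more counts in at least 3 of the 6 libraries of these ages was kept, whatever its level at either age. This left 898 miRNAs. Of these, 107 carried a sheep miRBase name, 115 a human, mouse or rat name, and 676 had been predicted from the sheep genome, 250 of them with a named match in another species and 426 without. The 3 libraries at 6 months and the 3 at 12 months came from the left testes of different Small Tail Han rams, 1 library per ram, with no treatment and no other difference named in the labels. The tissue was taken from inside the testis at surgery and frozen. The 3 libraries of 2-month-old rams entered the fit so that all 9 shared an estimate of the spread, and the mRNA libraries of the same rams were used to check the tissue. The study takes 6 months as adolescent and 12 months as adult, so the comparison asks which miRNAs differ between an adolescent and an adult testis.

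A miRNA is a short RNA that guides an Argonaute protein to messenger RNAs, mostly through pairing of its seed, bases 2 to 8 from its 5′ end. miRNAs that share a seed can bind overlapping sets of messages and are grouped as a family. In the testis, the miR-34 and miR-449 families are abundant in meiotic and post-meiotic germ cells, miR-202 in the gonad, miR-143 and miR-145 in smooth muscle and peritubular cells, and miR-451 and miR-144 in red blood cells. Short fragments of ribosomal and transfer RNA are also sequenced in small RNA libraries and can be listed as miRNAs.

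The mature sequences that the results turn on are given below as the deposited table lists them, 5′ to 3′ with the seed in capitals. The first set, chosen because most of its rows were lower in every 12-month library, is the pair miR-195 and miR-497 beside the more abundant oar-miR-16b, which has the same seed.
miR-195-5p: tAGCAGCAcagaaatgttggt
miR-497-5p: cAGCAGCAcactgtggtttg
oar-miR-16b: tAGCAGCAcgtaaatattgg
The pair miR-132 and miR-212 shares another seed and, summed as a family, was also lower in every 12-month library.
miR-132-3p: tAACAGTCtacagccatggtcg
miR-212-3p: tAACAGTCtccagtcacggcca
The family of miR-99 and miR-100 was higher in every 12-month library.
oar-miR-99a: aACCCGTAgatccgatcttg
miR-99b-5p: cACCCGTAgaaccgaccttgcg
miR-100-5p: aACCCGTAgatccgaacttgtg
The next set shows why miR-23b is listed more than once: the sheep entry is the shorter form, and a longer form is listed under the rat name.
oar-miR-23b: aTCACATTgccagggatt
rno-miR-23b-3p: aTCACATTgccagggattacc
The last set, picked after the values were seen, was higher in every 12-month library and holds letters known from 1 longer RNA, 5S ribosomal RNA, of which other listed pieces overlapped between ages.
hsa-miR-7641: tTGATCTCggaagctaagc
chr10_19333_mature: gAAGCTAAgcagggtcg
chr5_11800_mature: tACTTGGAtgggagaccgcctg
Names of the form chr10_19333 are the predictor's own labels for a hairpin and not coordinates.

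The libraries were checked first, because those of 12 months differed from each other more than the ages did. Levels of miRNAs are given as scaled CPM, a count relative to the library's total over the kept miRNAs after upper-quartile scaling. Those of mRNAs are given as CPM, relative to the total alone. TNP1, the transition protein that packs DNA in elongating spermatids, was at 697, 1196 and 744 CPM in the 6-month rams and at 877, 632 and 2.79 CPM in 12-month replicates 1, 2 and 3. ODF1, a sperm tail protein, was at 932, 1058 and 829 CPM at 6 months and at 974, 896 and 1.76 CPM at 12 months. The library labelled 12-month replicate 3 therefore nearly lacked the spermatid messages that the other 5 rams had. So did the 2-month replicates 2 and 3, where TNP1 was at 2.70 and 30.0 CPM, whereas 2-month replicate 1 had 710 CPM. The 2-month rams were thus not uniform, with germ cell marker sums of 3031, 216 and 439 CPM. The library labelled 12-month replicate 1 had the spermatid messages but also held messages of other tissue. CRISP1, a secreted protein of the epididymis, was at 146.7 CPM there and at 0 in the other 8 rams, WFDC2 was at 93.4 CPM against at most 0.310, and the smooth muscle gene ACTA2 was at 2360 CPM against 112 to 223 at 6 months. Of the 9 epididymal markers listed, 7 were measured, and their summed level was 752 CPM in this library and between 103 and 171 CPM in the others. EDDM3B, CDH1 and PAX8 were also highest in this library, but CDH16 was at 0 there. EPCAM was at 180 CPM there against 96.3 to 157, and made up most of the sum in the others. The 4 smooth muscle markers summed to 251 to 512 CPM at 6 months and to 5057, 536 and 1696 CPM at 12 months. The 7 germ cell markers measured of 8 summed to 3273, 4376 and 3328 CPM at 6 months and to 3416, 3219 and 501 CPM at 12 months, the 6 Sertoli cell markers measured of 7 to 119 to 394 CPM against 133, 217 and 671 CPM, and the 6 Leydig cell markers to 227 to 439 CPM against 68.0, 81.4 and 484 CPM. Where the germ cell sum was 501 CPM, TEX101 made up most of it, at 404 CPM against 126 to 213 CPM at 6 months. SYCP3 was at 49.1 CPM in that library against 13.5 to 17.7 CPM at 6 months. Both were higher there than in any other library, so the low sum came from the other germ cell markers. Replicate 2 at 12 months had the spermatid messages, with epididymal and smooth muscle sums, 171 and 536 CPM, just above the 6-month range. Where both 12-month replicates 1 and 3 are left out below, replicate 2 is the only 12-month ram, its spread is assumed to equal that of the other ages, and the values are descriptions. In bulk tissue, fewer cells of a type and less RNA per cell cannot be told apart.

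**Figure D1:**
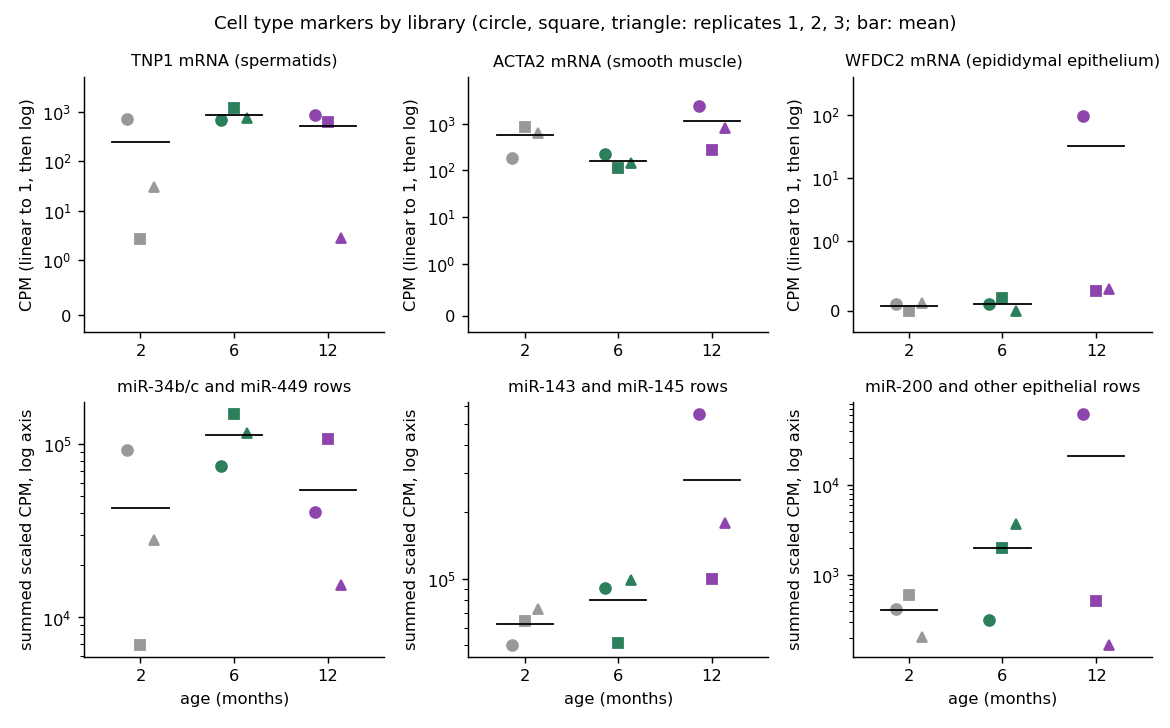
Levels of cell type markers in each library by age in months. The upper plots show mRNA CPM of TNP1, ACTA2 and WFDC2 (axis linear to 1, then log), and the lower plots the summed scaled CPM of the member rows of miR-34 and miR-449, of miR-143 and miR-145, and of the epithelial miRNAs (log axis). Circles, squares and triangles are replicates 1, 2 and 3 and bars are means. At 12 months the triangle is low for TNP1 and the circle is high for ACTA2, WFDC2 and the epithelial miRNAs.

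The miRNA libraries held 604545, 720396 and 295282 counts at 6 months and 1400436, 454517 and 5710499 at 12 months. A level of 3 counts corresponds to 9.86 scaled CPM in the shallowest of the 9 libraries and to 0.603 in the deepest, counting error only. Among the 898 miRNAs, 598 reached 10 counts in all 6 libraries, 14 did so in all 3 libraries of 12 months and in none of 6 months, and 1 in all 3 of 6 months and in none of 12 months. These last 15 passed the filter through 1 age alone, which favours a difference, and 8 of the 14 lay above in all 12-month libraries. Calls needed a fold change over 1.5 and, in the quasi-likelihood test of edgeR, a p under 0.05 after Benjamini-Hochberg adjustment.

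No miRNA was called between 6 and 12 months (0 of 898, 0%), and no seed family was (0 of 719, 0%). The smallest adjusted p in edgeR was 0.296 for a miRNA and 0.387 for a family. At an unadjusted p under 0.05 there were 57 miRNAs higher (6.35%) and 30 lower (3.34%) at 12 months, and 44 families higher (6.12%) and 20 lower (2.78%). DESeq2 called 4 miRNAs, all lower, and 7 families, 5 lower and 2 higher, the last led by chr18_31861_mature and chr3_7509_mature. The biological coefficient of variation over all miRNAs was 0.564, and the results below are therefore a description of 6 rams unless a test is named. Levels fully apart between the ages were found for 112 miRNAs: in 73 (8.13%) every 12-month library lay above every 6-month library, and in 39 (4.34%) every one lay below. With total counts in place of upper-quartile scaling these were 30 and 66. For 786 the ages overlapped. Of the families, 60 lay above (8.34%) and 32 below (4.45%). An exact permutation test of 3 rams against 3 cannot give a p under 0.10, so such a separation is no test of a single miRNA. The same 0.10 is the share of rows expected to separate, both directions together, if the ages were exchangeable. It stands beside 112 of 898 here. The gap was usually narrow: in 16 of the 112 miRNAs the nearest libraries of the ages differed by over 1.5 times, 9 higher and 7 lower at 12 months.

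**Figure D2:**
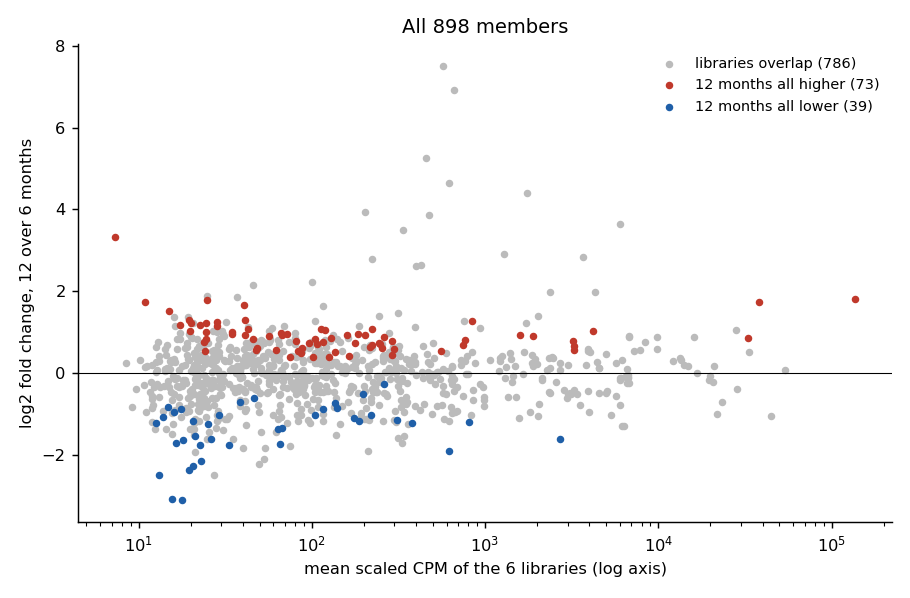
Each point is 1 of the 898 miRNAs, with its mean scaled CPM over the 6 libraries on a log axis and its log2 fold change of 12 over 6 months. The 73 miRNAs with all 12-month libraries higher and the 39 with all lower are coloured, and the 786 that overlap are grey, including the points with the highest fold changes, which are high in 1 library.

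Among those lower at 12 months was the pair miR-195 and miR-497. These miRNAs are made from a shared transcript in mammals, belong to the miR-15 and miR-16 family, and are known to repress cell cycle messages. miR-195-5p stood at 4000, 5229 and 3089 scaled CPM in the 6-month rams (mean 4106 ± 1074, SD, n = 3) and at 768, 359 and 2867 at 12 months (1331 ± 1346, n = 3). Replicate 3 at 12 months came close to the lowest 6-month ram, and the other two were far below it. The log2 fold change was -1.62 ± 0.69 (SE), with an adjusted p of 0.492 in edgeR. miR-497-5p was at 906, 1393 and 618 scaled CPM at 6 months and at 235, 90.4 and 451 at 12 months, so that all 3 adult rams lay below the 6-month range. Its log2 fold change was -1.90 ± 0.59, with an unadjusted p of 0.00987 and an adjusted p of 0.474. The strands from the other arm of the hairpins were lower as well: miR-497-3p was at 261, 283 and 233 against 107, 36.6 and 198 scaled CPM, and miR-195-3p at 24.1, 35 and 26.3 against 4.49, 2.15 and 17.1. The ram with the lowest level of all 4 was 12-month replicate 2. That library had spermatid messages and epididymal and muscle markers close to those at 6 months. Its Leydig cell markers summed to 81.4 CPM, below the 227 to 439 CPM at 6 months. The part of cell composition in these levels was not tested. Without 12-month replicate 3 the log2 fold change was -2.86 for miR-195-5p and -2.58 for miR-497-5p, and without 12-month replicate 1 it was -1.35 and -1.83. A further row with the rat name of miR-195-5p, from reads that did not map to the sheep genome, was low and scattered, with 1.6, 181 and 62.4 scaled CPM at 6 months and 50.5, 2.15 and 0.603 at 12 months. At 2 months miR-195-5p was at 2429, 4900 and 3081 and miR-497-5p at 537, 968 and 761 scaled CPM. In the list of the miR-15 and miR-16 family, 4 of 12 rows were lower in all 12-month libraries and 0 were higher, beside 4.34% and 8.13% of all miRNAs. The list counts both arms of a hairpin, and these 4 are the miR-195 and miR-497 rows just given. The rows miR-195-3p (seed CAATATT) and miR-497-3p (seed AACCACA) do not have the seed of the family. The count therefore does not show a decrease across the family. The median log2 fold change of the 12 rows was -0.73, beside 0.01 over all 898. The abundant member did not separate: oar-miR-16b was at 28497, 47174 and 20940 against 18235, 23837 and 31771 scaled CPM, and since it holds 49.2% of the reads of its seed family, the family as a sum overlapped between the ages.

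**Figure D3:**
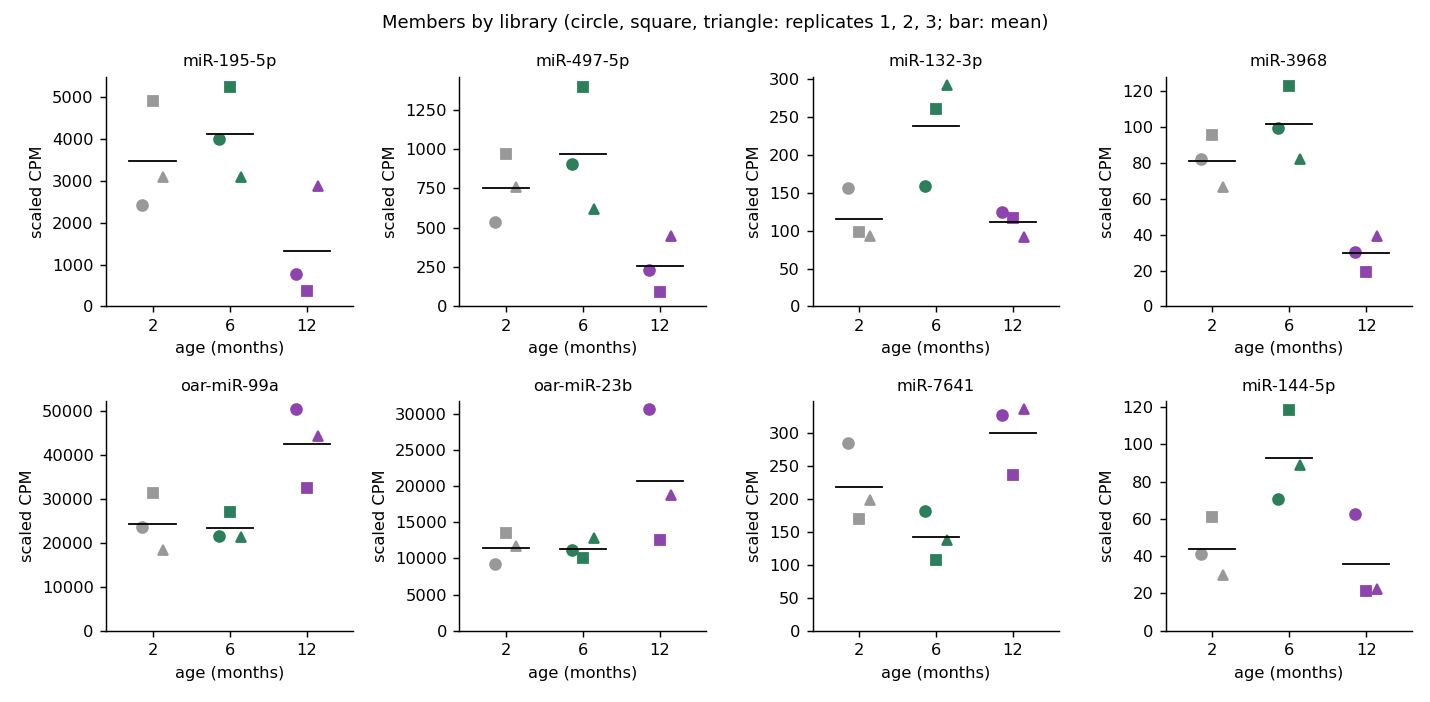
Scaled CPM of 8 miRNAs in each library by age in months. Circles, squares and triangles are replicates 1, 2 and 3 and bars are means. miR-195-5p, miR-497-5p, miR-132-3p, miR-3968 and miR-144-5p are lower in each 12-month library than in each 6-month library, oar-miR-99a and miR-7641 are higher, and oar-miR-23b overlaps by a narrow margin.

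The family of miR-132 and miR-212 was lower at 12 months too. miR-132 is induced by the transcription factor CREB and is made with miR-212 from a shared transcript. Summed over its 5 rows, the family was at 205, 337 and 355 scaled CPM at 6 months and at 177, 164 and 128 at 12 months (log2 fold change -0.94 ± 0.35, unadjusted p 0.0252, adjusted p 0.452 in edgeR). All 3 adult rams lay below the 3 younger ones. Most of the family was the rat-named miR-132-3p, at 159, 261 and 292 against 125, 116 and 91.8 scaled CPM (log2 fold change -1.10 ± 0.35). The log2 fold change of this row stayed between -1.32 and -0.92 as each ram was left out. miR-212-3p alone overlapped, at 35.3, 55.4 and 32.9 against 39.3, 28.0 and 28.3. At 2 months the family was at 213, 136 and 131 scaled CPM, with 2 of 3 rams inside the 12-month range. The other family of 2 or more members below in all libraries had the seed AGGTCCC, with 2 predicted members of identical sequence. Its sum was at 35.3, 152 and 59.2 against 34.8, 8.61 and 26.7 scaled CPM, and without 6-month replicate 2 its log2 fold change of -1.77 became -0.94.

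The miRNA with the smallest p was mmu-miR-3968, at 99.4, 122 and 82.2 scaled CPM at 6 months (101 ± 20.2, n = 3) and 30.3, 19.4 and 39.0 at 12 months (29.6 ± 9.83, n = 3). Per the paper's methods, such mouse names were given to reads that mapped to neither sheep miRBase nor the sheep genome. The sequence of this row was not compared with ribosomal or transfer RNA. The nearest libraries of the ages were a factor of 2.11 apart. The log2 fold change was -1.74 ± 0.34, with an unadjusted p of 0.000576 and an adjusted p of 0.296 in edgeR, and DESeq2 called it (adjusted p 0.00128). It lay between -2.01 and -1.54 as each ram was left out. A predicted row matched to the same mouse name but 17 nt long was not lower, at 321, 659 and 667 against 444, 506 and 817 scaled CPM. The other rows that DESeq2 called were scarce: hsa-miR-6820-3p at 17.6, 39.4 and 26.3 against 5.61, 2.15 and 2.21 scaled CPM, chr4_11214_mature at 14.4, 19.0 and 32.9 against 2.24, 6.45 and 3.42, and chrx_42810_mature at 12.8, 51.0 and 32.9 against 7.86, 0 and 2.61. In 12-month replicate 2 these 3 were at or below the level that 3 counts give there, 6.45 scaled CPM. A further 3 predicted rows without a named match were among the 6 lower miRNAs with the smallest p at 20 or more scaled CPM. chrx_43043_mature was at 305, 244 and 338 against 132, 136 and 169 scaled CPM, chrx_42853_mature at 43.3, 32.1 and 42.7 against 13.5, 12.9 and 12.3, and chr9_18633_mature, which belongs to the seed AGGTCCC, at 16.0, 62.7 and 26.3 against 13.5, 6.45 and 10.6.

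Of the red blood cell miRNAs, 1 of 3 rows was lower in every 12-month library, beside 4.34% of all miRNAs, and 0 were called. miR-144-5p was at 70.6, 118 and 88.7 scaled CPM at 6 months and at 62.9, 21.5 and 22.3 at 12 months, and the ages did not overlap. miR-451, which is processed by Argonaute 2 and dominates in erythrocytes, was at 9804, 7922 and 3822 against 4640, 3447 and 2448, where 12-month replicate 1 lay above 6-month replicate 3. miR-144-3p was at 70.6, 133 and 19.7 against 49.4, 21.5 and 13.3. The 3 rows had 0 above, beside 8.13% of all, and their median log2 fold change was -1.38. Globin messages were not measured here. Chosen after their values were seen, 2 rows of identical sequence named miR-146b-5p, an immune-induced miRNA, were lower in every 12-month library, at 212, 159 and 168 against 85.3, 88.2 and 124 scaled CPM for the first. A more abundant row of that name, predicted from another hairpin, was at 5068, 2841 and 2971 against 939, 2315 and 3805 scaled CPM and overlapped. Its letters differ from those of the other rows at the 3′ end, so the shared name may cover different miRNAs. The leukocyte miRNAs miR-142, miR-150, miR-155 and miR-223 had 0 of 6 rows apart in either direction, beside 8.13% higher and 4.34% lower of all miRNAs.

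miR-34b-5p was at 41196, 75858 and 64097 scaled CPM at 6 months and at 21526, 58487 and 7658 at 12 months, and miR-34c-5p at 18314, 36385 and 32629 against 11126, 28009 and 4193. 12-month replicate 2 was inside the 6-month range for both, and replicate 3, without spermatid messages, was lowest. Replicate 1, whose TNP1 and ODF1 were at the 6-month level, was below the lowest 6-month ram for both. All 11 rows of miR-34b, miR-34c and miR-449a to miR-449c overlapped between ages, beside 87.5% of all miRNAs. Their median log2 fold change was -0.96, which was -0.48 without 12-month replicate 3 and -0.05 without both 12-month replicates 1 and 3. The part of the germ cell share in this difference was not tested. miR-202-5p, a miRNA of gonadal support cells, was at 43957, 29071 and 13092 against 3273, 24489 and 25131 scaled CPM, lowest in 12-month replicate 1.

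Among abundant miRNAs higher at 12 months was the family of miR-99a, miR-99b and miR-100. These miRNAs are known for repressing mTOR and insulin-like growth factor receptor messages. Summed over 6 rows, the family was at 23898, 28972 and 23168 scaled CPM at 6 months (25346 ± 3161, n = 3) and at 52191, 34483 and 47359 at 12 months (44677 ± 9153, n = 3). The lowest 12-month ram was 1.19 times the highest 6-month ram. The log2 fold change was 0.82 ± 0.29, with an unadjusted p of 0.0204 and an adjusted p of 0.432 in edgeR, and at 2 months the family was at 25263, 34412 and 21105 scaled CPM. It was 0.69 without 12-month replicate 1, 0.77 without 12-month replicate 3 and 0.44 without both. Nearly all of it, 94.2%, was oar-miR-99a, at 21655, 27174 and 21492 against 50660, 32662 and 44321 scaled CPM. Its relatives did not share the pattern: miR-99b-5p was at 2123, 1673 and 1551 against 1401, 1665 and 2974, and the rat-named miR-100-5p at 96.2, 106 and 85.4 against 106, 108 and 61.9. Over the list of miR-10, miR-99 and miR-125, 2 of 12 rows lay above in all libraries and 0 below, beside 8.13% and 4.34% of all miRNAs. The second was the scarce miR-125b-2-3p, at 97.8, 42.3 and 69.0 against 113, 101 and 106 scaled CPM. oar-miR-125b overlapped, at 30338, 33505 and 19044 against 53732, 25377 and 39426, and oar-miR-10a was at 488, 1425 and 799 against 17619, 936 and 860, high in 12-month replicate 1 alone.

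miR-143 and miR-145 separated by a narrow margin, and most of their fold change came from 1 library. oar-miR-143 was at 20291, 12573 and 20256 against 116447, 21900 and 37187 scaled CPM, miR-145-5p at 68892, 38221 and 75842 against 425871, 76403 and 138942, and the log2 fold changes of 1.72 and 1.81 became 0.74 and 0.82 without 12-month replicate 1, where the smooth muscle messages were highest, and 0.31 and 0.33 without both 12-month replicates 1 and 3. The epithelial miRNAs had 0 of 9 rows apart, beside 8.13% higher and 4.34% lower of all miRNAs. oar-miR-200a was at 51.3, 815 and 1824 against 33383, 81.8 and 55.2 scaled CPM, and miR-205 at 1.6, 10.2 and 6.57 against 3343, 58.1 and 2.41. miR-182 of the miR-183 cluster was at 11.2, 16.0 and 3.29 against 3943, 6.45 and 13.9, and the 2 rows of this cluster, like those of miR-200, were high in the library with epididymal messages and not in the other two.

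oar-miR-23b was at 11159, 10030 and 12842 scaled CPM at 6 months (11344 ± 1416, n = 3) and at 30648, 12604 and 18827 at 12 months (20693 ± 9166, n = 3). Replicate 2 at 12 months lay just below replicate 3 at 6 months, so the ages overlapped. The log2 fold change was 0.87 ± 0.36, with an unadjusted p of 0.0381 and an adjusted p of 0.475 in edgeR. It was 0.47 without 12-month replicate 1 and 0.15 without both 12-month replicates 1 and 3. The longer form listed under the rat name was at 3058, 2340 and 2895 against 7705, 3634 and 5612 scaled CPM and did not overlap, with a log2 fold change of 1.03 ± 0.36 and 0.39 without both rams. At 2 months the 2 forms were at 9243, 13478 and 11748 and at 2528, 4179 and 3812 scaled CPM. miR-23b lies with miR-27b and miR-24 in a cluster, whereas oar-miR-23a belongs to the sister cluster. oar-miR-23a was at 13440, 14413 and 14302 against 15456, 12414 and 19558, and oar-miR-27a at 6415, 5091 and 5025 against 8299, 5129 and 7299 scaled CPM. Of 12 rows of these clusters, 1 lay above in all libraries, a share near the 8.13% of all miRNAs, and 0 lay below (4.34% of all), with a median log2 fold change of 0.48 that was 0.18 without 12-month replicate 1.

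oar-miR-181a, which is known to tune receptor signalling in lymphocytes, was the third sheep miRBase entry above in all libraries, after oar-miR-99a and oar-miR-143. It was at 2898, 2826 and 2208 against 3023, 3387 and 5293 scaled CPM (log2 fold change 0.56 ± 0.36). The only sheep entry below in all libraries was oar-miR-380-3p, at 276, 293 and 283 against 174, 262 and 269. It was the 1 of 57 rows of the imprinted DLK1-DIO3 cluster apart between ages, beside 8.13% higher and 4.34% lower of all miRNAs. The same shares stand beside the counts of rows apart that follow. The 12 let-7 rows had a median log2 fold change of -0.15 and 0 rows apart, with oar-let-7a at 18741, 34017 and 13963 against 19707, 16003 and 21302 scaled CPM. The medians were -0.06 for 6 miR-30 rows, -0.03 for 3 miR-26 rows and -0.03 for 7 rows of miR-130 and miR-301, again with 0 apart. The 18 rows of the miR-17 to miR-92 clusters, which promote proliferation, had a median of -0.40 and 0 apart, although their most abundant row, oar-miR-19b, was at 55327, 36373 and 65783 against 34056, 65133 and 66188 scaled CPM. The 10 rows listed for spermatogonia had a median of 0.30, which turned to -0.47 without 12-month replicate 1, where oar-miR-21 was at 61301 scaled CPM against 14971 to 25039 at 6 months and 21543 and 30973 in the other 12-month rams. The 7 miR-29 rows had a median of 0.47 that turned to -0.09 in the same way. Most of these rows list 1 identical sequence, the miR-29c-5p strand, whose seed is not that of oar-miR-29a. Their median is therefore not that of the miR-29 family. Other medians rested on 1 library as well. Those of 6 mesenchymal rows (miR-199 and miR-214) and of 4 miR-181 rows were 0.52 and 0.50, and 0.20 and 0.18 without 12-month replicate 3. Those of 2 rows of miR-103 and miR-107 and of 4 rows of miR-148 and miR-152 were 0.51 and 0.32, and 0.07 and 0.12 without 12-month replicate 1. For the remaining short lists, the 5 rows of gonadal support cells had a median of -0.45, which was -0.21 without 12-month replicate 1 and -0.78 without 12-month replicate 3. The single rows of striated muscle and of the X-linked testis cluster were at 0.03 and -0.81, and at -0.20 and -0.40 without 12-month replicate 1. The endothelial miRNA miR-126 had no row with enough counts.

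**Figure D4:**
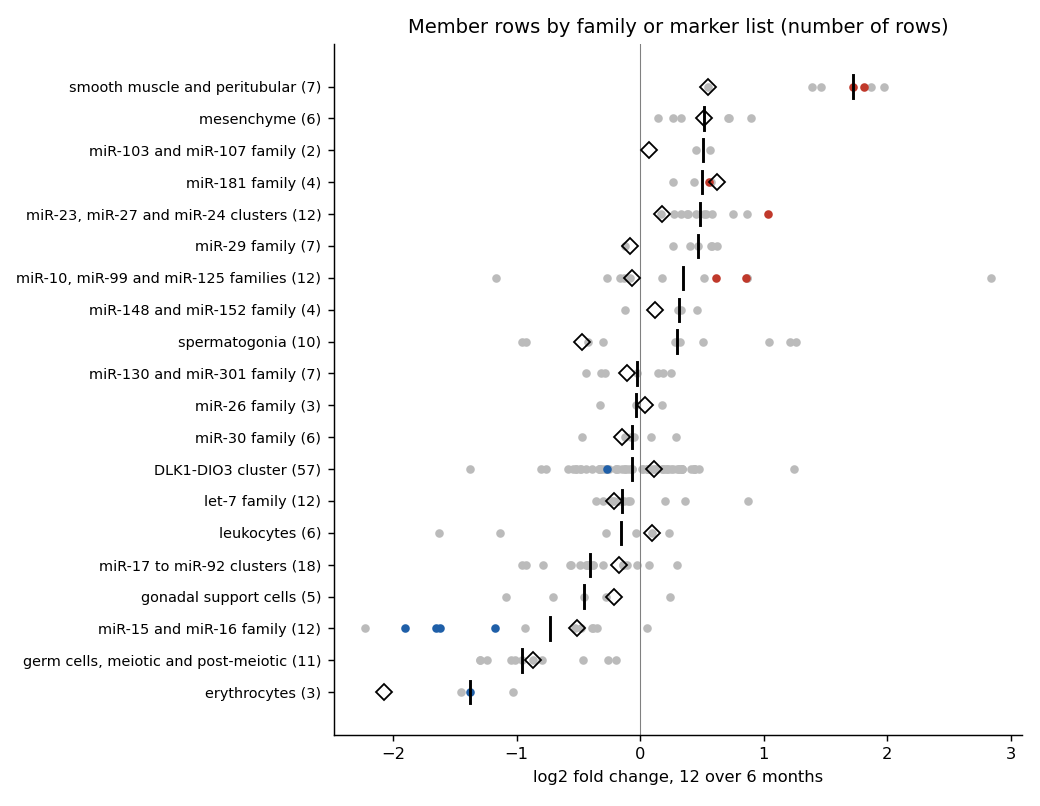
Log2 fold change of 12 over 6 months for each member row, grouped by family or marker list with the number of rows in brackets. Red points have all 12-month libraries higher, blue points all lower, and grey points overlap. Bars are list medians and open diamonds the medians without 12-month replicate 1. The epithelial list and the miR-183 cluster, with medians of 3.49 and 6.09 from that library, are left out for scale. The miR-15 and miR-16 list holds 4 blue points, which are both arms of the miR-195 and miR-497 hairpins.

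The largest class above in all 12-month libraries was not of named miRNAs. Predicted rows without a named match made up 55 of the 73, and 12.9% of such rows lay above, beside 2.80% of sheep miRBase rows, 2% of predicted rows with a named match and 8.70% of rows with a human, mouse or rat name. These rows were short and rich in G and C. The listed mature form had a median length of 18 nt and 63.2% G and C in the 73 rows above, 21 nt and 50% in the 39 below, and 21 nt and 50% in the 786 that overlapped. Within the predicted rows without a match, the medians were 17 nt and 64.7% for those above and 18 nt and 54.5% for those that overlapped. The summed level of the 55 rows was 12733, 8455 and 15126 scaled CPM at 6 months and 20400, 19110 and 22133 at 12 months, with 21423, 15979 and 17609 at 2 months. Since the rows were chosen for lying above at 12 months, the first 2 ages give no test. That choice also favours low 6-month levels, so the 2-month levels give no test against them either. All listed predicted rows without a named match took 14.3%, 11.6% and 17.6% of the unscaled counts at 6 months. They took 9.03%, 16.7% and 12.0% at 12 months, so this class as a whole overlapped between ages. All rows of 18 nt or less together overlapped between ages. Scaled here from all counts of a library, they were at 83823, 84324 and 99911 scaled CPM at 6 months and 105162, 86387 and 96925 at 12 months. These were 8.11% to 10.4% against 6.78% to 8.92% of the unscaled counts, with the lowest share in 12-month replicate 1.

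**Figure D5:**
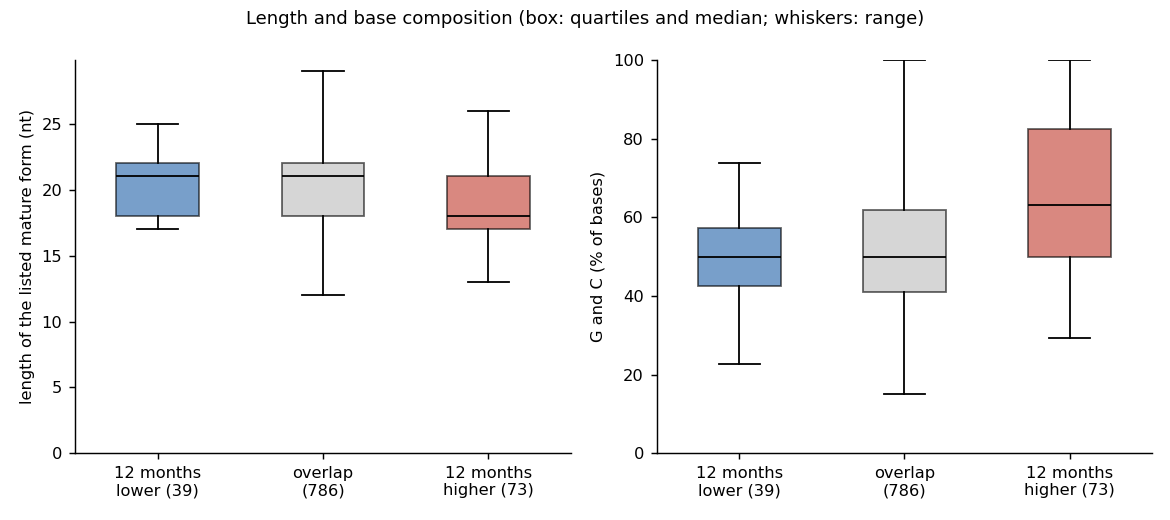
Length in nucleotides and G and C content in percent of the listed mature forms, for the 39 miRNAs with all 12-month libraries lower, the 786 that overlap and the 73 with all higher. Boxes give quartiles and medians and whiskers the range. The higher group is shorter and richer in G and C, with medians of 18 nt and 63.2%.

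Several of these rows shared runs of letters, a grouping made after their values were seen. The last 10 bases of hsa-miR-7641 are the first 10 of chr10_19333_mature (gaagctaagc), and the letters of both, and those of chr5_11800_mature, are known from 5S ribosomal RNA, a component of the large ribosomal subunit. hsa-miR-7641 was at 181, 108 and 138 scaled CPM at 6 months and at 328, 237 and 337 at 12 months (log2 fold change 1.08 ± 0.35, adjusted p 0.474 in edgeR). chr10_19333_mature was at 149, 101 and 168 against 276, 237 and 283, and chr5_11800_mature at 2664, 1293 and 3700 against 3836, 3965 and 4189. With total counts alone chr5_11800_mature overlapped between the ages. With upper-quartile scaling these 3 rows were higher in each adult ram. Their log2 fold changes were 0.73, 0.77 and 0.64 when both 12-month replicates 1 and 3 were left out. They were picked from the rows that lay above, and other rows with letters like those of 5S ribosomal RNA did not separate. The far more abundant chr5_11774_mature was at 11984, 14129 and 13546 against 13032, 14011 and 18022 scaled CPM (log2 fold change 0.18), and chr10_19333_star, the other arm of the hairpin of chr10_19333_mature, at 41.7, 70.0 and 49.3 against 35.9, 43.0 and 46.8 (-0.36). No ribosomal or transfer RNA reference was used here, so such rows were not counted in full, and how the recovery of such fragments varied between libraries was not tested. A second set held the run actctggcatgctaac, which is known from 18S ribosomal RNA. The family with seed ACTCTGG, 4 rows of which the 3 members have identical sequence, was at 646, 598 and 680 scaled CPM at 6 months (641 ± 41.4, n = 3) and at 1015, 1065 and 1008 at 12 months (1029 ± 31.1, n = 3), with 1250, 906 and 1093 at 2 months. With upper-quartile scaling the spread within each age was small and the nearest libraries differed by a factor of 1.48. The log2 fold change of the family was then 0.68 ± 0.28, with an unadjusted p of 0.0385 and an adjusted p of 0.532 in edgeR. It lay between 0.63 and 0.73 as each ram was left out. With total counts alone the ages overlapped and it was 0.43. This set too was picked from rows that lay above. chr2_3859_mature, whose letters are also known from 18S ribosomal RNA, overlapped, at 367, 553 and 634 against 625, 409 and 463 scaled CPM.

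Of the 123 families with 2 or more members, 14 lay above in all 12-month libraries (11.4%) and 2 below (1.63%). The 10 above with the smallest p included, beside miR-143, the miR-99 family and the seed ACTCTGG, 5 families whose members were predicted rows without a named match, led by chr3_6243_star, chr9_17792_mature, chr22_38276_mature, chr24_39365_mature and chr24_40070_mature. Their log2 fold changes lay between 0.60 and 1.17, and the family of chr9_17792_mature had the smallest spread at 6 months, at 78.6, 81.7 and 82.2 against 144, 120 and 165 scaled CPM, although 1 of its 2 members had passed the filter through 12 months alone. The other two were named. The family of miR-345-3p was at 41.7, 37.9 and 55.9 against 76.3, 71.0 and 59.9 (log2 fold change 0.62 ± 0.29, and 0.21 without genome-predicted rows), although neither of its rows separated alone. The family of miR-3960, a run of GGC repeats, was at 181, 209 and 204 against 365, 237 and 306 (0.61 ± 0.32). The 4 families beyond these, chosen after their values were seen, were led by or contained miR-134-5p, miR-1839-5p, the seed GCCCCCG and miR-210-3p, the miRNA known for its induction by low oxygen. Their nearest libraries differed by a factor of at most 1.06, and miR-210-3p was at 149, 115 and 148 against 205, 170 and 150 scaled CPM.

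Of the single rows above at 20 or more scaled CPM, the 6 with the smallest p held miR-145-5p and 5 predicted rows. chr3_7509_mature was at 72.2, 78.7 and 69.0 scaled CPM at 6 months and at 134, 151 and 178 at 12 months, nearly as high as the 137 to 190 of the 2-month rams (log2 fold change 1.07 ± 0.28, unadjusted p 0.00373, adjusted p 0.474 in edgeR). chr18_31861_mature was at 115, 105 and 112 against 220, 191 and 219, and the other arm of its hairpin at 14.4, 11.7 and 6.57 against 53.9, 21.5 and 40.4, a row that passed the filter through 12 months alone. The last 14 bases of chr18_31861_mature are the first 14 of chr8_16603_mature (agctaccatctgtg), which was higher as well, at 19.2, 13.1 and 16.4 against 24.7, 45.2 and 28.9 scaled CPM. chr11_21007_mature was at 507, 414 and 565 against 777, 1562 and 1226 and was highest in 12-month replicate 2. Its letters are known from the 3′ end of transfer RNA for aspartate, and its log2 fold change of 1.26 ± 0.36 was 1.66 without both 12-month replicates 1 and 3. chr9_18181_star, from a hairpin whose other arm is named miR-1839-5p, was at 40.1, 39.4 and 39.4 against 89.8, 73.2 and 58.5 (0.89 ± 0.28). In all 5 rows the 2-month libraries lay above the 6-month libraries too. For chr9_18181_star they were at 69.6, 68.8 and 67.2 scaled CPM. The rows were chosen for 6-month levels below those of 12 months, which favours this order, so it is no test.

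Directions depend on the scaling. With total counts alone the median log2 fold change over all 898 miRNAs was -0.26, against 0.01 with upper-quartile and -0.03 with TMM scaling, and the miRNAs at an unadjusted p under 0.05 were 15 higher and 49 lower in place of 57 and 30. The upper-quartile factor of 12-month replicate 1 was 0.645 and those of the other 5 libraries lay between 0.877 and 1.04. In that library miR-143 and miR-145 took 35.1% of the counts, beside 4.89% to 10.1% at 6 months and 10.2% and 15.6% in the other 12-month rams. Relative to the shifted median, oar-miR-99a at 0.57 and miR-497-5p at -2.19 with total counts kept their sides.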

How the data were processed

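Small RNA of the left testis was sequenced on the Ion Proton from 3 rams at each of 2, 6 and 12 months. Per the paper's methods, the authors mapped filtered reads to sheep miRBase, then to the sheep genome (Oar_v3.1) with miRDeep, and the rest to miRBase entries of human, rat and mouse, using BWA. The deposited values are raw counts per mature miRNA and per gene, before any scaling. Rows with 10 or more counts in at least 3 of the 6 libraries were kept. The total of each library over the kept rows was scaled by the upper quartile, and these totals also served the family fits. The counts were tested with edgeR 4.0.16 in R 4.3.3 (quasi-likelihood, all 9 libraries, Benjamini-Hochberg over all 898 miRNAs). Family counts are sums over all listed rows with the same bases 2 to 8. The lists were matched by name instead, so they count both arms of a hairpin and rows of identical sequence. DESeq2 1.42.0 was an alternative. Tables were made in Python 3.11.15. The tests were tested on simulated data. The members, lists and rules were chosen with earlier results of these data known. Named were the list members by abundance, non-overlapping families of 2 or more members (10 per direction) and single rows (6 per direction) with a mean of 20 or more scaled CPM by smallest p, 1 row per mature sequence, and oar-miR-23b. Value columns without a sample numbered 0. The rams are different animals, and p-values measure the spread between single rams. Rows of near-identical sequence share reads, so their counts are uncertain. Genome coordinates are not given here.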

Additional observations from a re-analysis of the deposited data

Results flagged for a closer look

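CRISP1, a message of epididymal epithelium, stood at 146.7 CPM in the mRNA library of 12-month replicate 1 and at 0 in the other 8 rams. It drew attention because the mRNA table is outside the miRNA measurement and the level is above that of all other libraries.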

How the results depend on the processing

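With 3 rams an age and a shallowest library of 295282 counts, calls were limited in the main test, and 0 miRNAs and 0 families were also called with TMM or total count scaling, edgeR's filterByExpr, only the 6 libraries, no fold threshold, without genome-predicted rows (families) and as each ram was left out (0 to 0). Without both 12-month replicates 1 and 3, a setting chosen after seeing the data that leaves 1 ram at 12 months, 0 calls bear on nothing. Replicate numbers mark different rams. Same-numbered rams had correlations of deviations of -0.408, -0.204 and -0.360, and with the replicate block 0 miRNAs and 0 families were called in either direction. DESeq2 called 0 miRNAs higher and 4 lower, and 2 families higher and 5 lower. With no filter on low counts 33 miRNAs were called higher and 24 lower of 7131, and 24 families higher and 18 lower. Of the 57 miRNAs, 21 are among the 898, and 7 had 0 counts in all 3 libraries of an age. The higher ones included oar-miR-200a, miR-205, miR-182 and oar-miR-10a, whose levels were by far highest in 12-month replicate 1. Why more were called without the filter was not tested.

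The number of miRNAs apart between ages, 73 higher and 39 lower, was 30 and 66 with total count scaling and 251 and 158 with no filter, where more rows were counted. For families, 60 higher and 32 lower became 21 and 59, and 182 and 119. Fewer libraries separate more easily: leaving out 1 ram gave 92 to 167 miRNAs higher and 55 to 155 lower, and 76 to 138 families higher and 50 to 125 lower, most without 12-month replicate 2. Of 354 alternative values for the 25 named miRNAs and families, 2 became calls: mmu-miR-3968 in DESeq2 (-1.73) and miR-497-5p with no filter (-1.90). 0 reversed, but 24 of the 25 were named because their libraries do not overlap, which fixes their direction as rams are left out, and 0 had a call to lose, so this is no sign of stability.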
